A study of Homo sapiens with 12 samples.

Results

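Scavenger receptors and foam cell lipid genes were examined as a set of 10 genes chosen by name: CD36, MSR1, OLR1, SCARB1, LPL, FABP4, PLIN2, ABCA1, ABCG1 and NR1H3. Each of them has 1 row among the 58735 rows of the count table, and all 10 had at least 10 counts in total and were tested. RNA-sequencing of THP1 cells, an established human monocytic leukaemia line, gave 3 libraries for each of 4 groups. These were the cells alone (mono-culture) and the same cells beside control ECs, beside senECs or beside senECs that had EGCG. The ECs were human umbilical vein endothelial cells kept apart from the THP1 cells by a transwell membrane, control ECs had vehicle, senECs were made senescent with 10 µM etoposide for 24 h, and the last group of senECs also had 100 µM EGCG, a green tea catechin, for 24 h. After 24 h of culture all THP1 cells, those of mono-culture included, received LPS at 100 ng/ml for the last 2 h, so that every level below is one of LPS-stimulated cells. The cells are undifferentiated cells of 1 line, and no lipid load is named in the labels.

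Foam cells form when macrophages of the artery wall take up modified lipoproteins through scavenger receptors and store the cholesterol as esters in lipid droplets. Efflux is carried by transporters of the ABC family, whose genes are targets of the liver X receptors (LXR), nuclear receptors that sense oxysterols and bind DNA together with retinoid X receptors. A related receptor, PPARγ, controls several uptake and storage genes.

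Total counts ranged from 15439836 to 22092600 per library, and a count of 0 in the smallest library allows a level of up to 0.194 CPM, the count scaled to the library size after TMM normalization, a limit for counting error only. Monocyte markers were present in every library, with SPI1, the gene of the transcription factor PU.1, at 226 to 385 CPM. The summed level of 12 endothelial markers was 21.8 to 27.9 CPM in mono-culture, 25.3 to 27.8 beside control ECs, 26.1 to 34.7 beside senECs and 25.7 to 28.9 with EGCG-treated senECs. EGFL7 alone gave 17.8 to 30.4 CPM of it, mono-culture included, while CDH5, the gene of VE-cadherin, had 0 to 1 counts, EMCN 0 to 3 and PLVAP 0 to 2 in any library. ERG had 3 to 11 counts in mono-culture, 17 to 37 beside control ECs, 13 to 19 beside senECs and 3 to 22 beside EGCG-treated senECs. Of 9 endothelial markers tested, 1 lay wholly above mono-culture beside control ECs (background 6.25% of all genes). Beside senECs 2 did (background 8.18%), and beside EGCG-treated senECs 0 did (background 6.4%). In each co-culture 0 lay wholly below (background 6.51% beside control ECs, 8.5% beside senECs and 7.72% beside EGCG-treated senECs). With 9 markers, such counts cannot be told from these shares. The replicates carry the numbers 1, 2 and 3 in mono-culture and with control ECs, and 1, 2 and 5 in both senEC groups. Nothing in the labels says that the replicates were separate cultures, so p-values measure the spread between these libraries.

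The members fell into abundant and scarce genes. Per length (FPKM, with the summed exon length of each gene), LPL led with a mean of 162 over 12 libraries (range 135 to 207), followed by PLIN2 at 43.0 (30.7 to 62.7), SCARB1 at 40.3 (34.2 to 43.8), CD36 at 21.0 (14.7 to 27.3), ABCA1 at 13.0 (7.91 to 21.1) and NR1H3 at 7.00 (6.40 to 7.85). FABP4 (0.772), OLR1 (0.761), ABCG1 (0.133) and MSR1 (0.0405) were the scarce members, and each of them was below 5 CPM on average. Among neighbours in this order, the ranges over the 12 libraries overlapped for PLIN2 and SCARB1, CD36 and ABCA1, FABP4 and OLR1, OLR1 and ABCG1, and ABCG1 and MSR1. Within single libraries PLIN2 was above SCARB1 in 8 of 12, FABP4 above OLR1 in 7 and ABCG1 above MSR1 in 9, whereas CD36 was above ABCA1 in 11 and OLR1 above ABCG1 in 12. Summed exon lengths count every annotated exon, which lowers the value of genes with long rarely used exons.

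**Figure D1:**
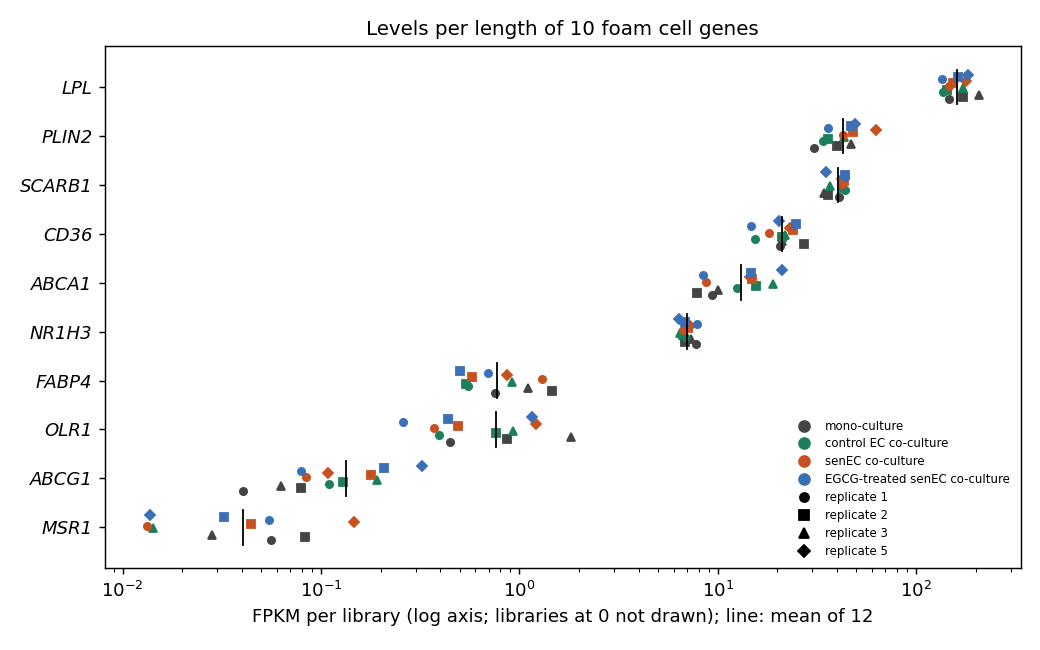
Level per length (FPKM, logarithmic x axis) of each member in the 12 libraries, 1 point per library, coloured by group, with the shape giving the replicate number and the line the mean of 12. LPL lies furthest right at a mean of 162 FPKM, and 4 members lie below 1 FPKM on average.

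The first question was whether co-culture changed the members against mono-culture. By edgeR's quasi-likelihood test with Benjamini-Hochberg adjustment over 25873 genes, 0 of 10 members passed an adjusted p of 0.05 with control ECs (background 0.143% of all genes), 0 of 10 with senECs (background 0.309%), 0 of 10 with EGCG-treated senECs (background 0.213%) and 0 of 10 for the mean of the 3 co-cultures (background 0.723%). DESeq2 also called 0 members in each of these, though some other settings, such as keeping every gene with a count, called ABCA1 or PLIN2. At an unadjusted p of 0.05 there were 3, 1, 3 and 2 members in that order, where all genes gave 6.52%, 11%, 8.58% and 10.7%, and the median log2 fold change of the 10 members was -0.18, 0.07, -0.10 and -0.13, against 0.01, -0.02, -0.00 and -0.02 over all genes tested. The 3 members with control ECs included MSR1, which had only 0, 0 and 2 counts there. The comparisons share the mono-culture libraries and are not independent of each other.

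The scavenger receptor CD36, a fatty acid translocase and receptor of oxidised LDL that lies on chr7:80369575-80679277 (GRCh38, plus strand), was well expressed in all groups. Its level was 223, 297 and 230.5 CPM in mono-culture, 167, 231 and 238 beside control ECs, 196, 262 and 250.4 beside senECs and 159.8, 269.9 and 222 beside EGCG-treated senECs. The groups overlapped, and replicate 1 was the lowest library of each group. The log2 fold change against mono-culture was -0.24 ± 0.17 (SE, adjusted p = 0.902) with control ECs, -0.08 ± 0.17 (adjusted p = 0.916) with senECs and -0.20 ± 0.17 (adjusted p = 0.785) with EGCG-treated senECs.

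SCARB1, which encodes SR-BI, a receptor for HDL that takes up cholesteryl esters, varied little, with its highest library 1.28 times its lowest. It was at 316, 277 and 265 CPM in mono-culture, 339, 327 and 284 beside control ECs, 326, 336 and 327 beside senECs and 338, 339 and 272 beside EGCG-treated senECs. All 3 senEC libraries lay above all 3 of mono-culture (background for such a gap upwards 8.18%). The log2 fold change was 0.21 ± 0.11, which did not pass the test (adjusted p = 0.510).

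MSR1, the class A scavenger receptor, was barely detected. It had 7, 12 and 4 counts in mono-culture, 0, 0 and 2 beside control ECs, 2, 6 and 19 beside senECs and 7, 4 and 2 beside EGCG-treated senECs. No fold is given, since several libraries were at or under 3 counts. OLR1, which encodes LOX-1, a lectin-like receptor of oxidised LDL, was at 1.37, 2.64 and 5.56 CPM in mono-culture, 1.20, 2.33 and 2.83 beside control ECs, 1.14, 1.50 and 3.69 beside senECs and 0.792, 1.33 and 3.54 beside EGCG-treated senECs. Its values spread more within groups than between them, and for the mean of the 3 co-cultures the log2 fold change was -0.65 ± 0.42 (adjusted p = 0.617), which turned to 0.01 without replicate 3 of mono-culture.

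**Figure D2:**
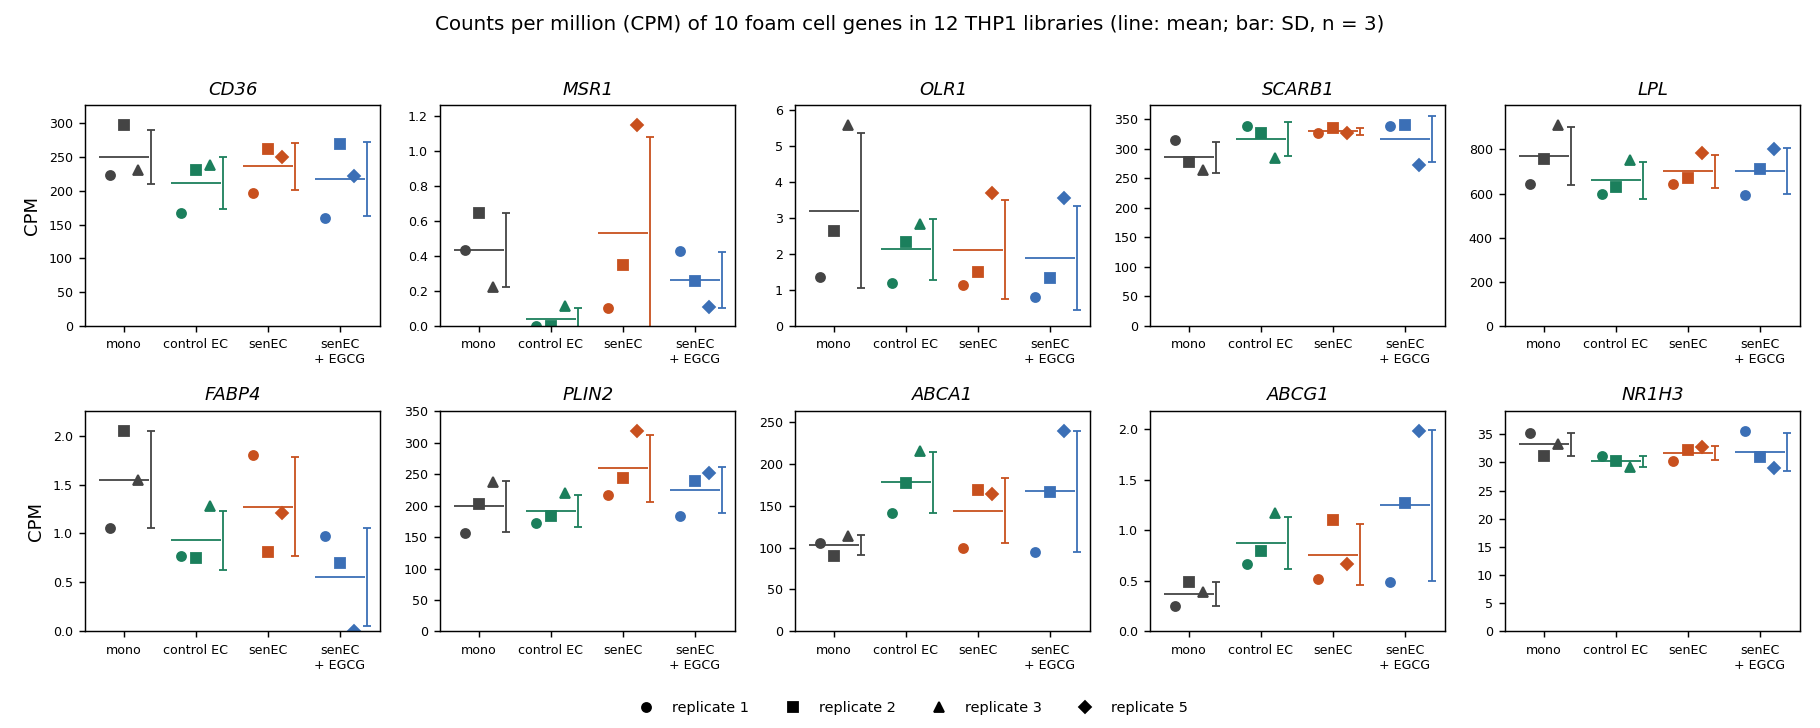
CPM of the 10 members (y axis, from 0) by group (x axis), with 1 point per library, the shape giving the replicate number, the line the mean and the bar the SD of 3 libraries. The ABCG1 points of all co-cultures lie above those of mono-culture, the ABCA1 points of control EC co-culture lie above 114 CPM, the highest of mono-culture, and the other panels mostly show overlapping groups.

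Of the uptake and storage genes, LPL, which encodes the lipase that frees fatty acids from lipoproteins, was at 644, 756 and 909 CPM in mono-culture, 597, 629 and 753 beside control ECs, 646, 672 and 785 beside senECs and 593, 713 and 804 beside EGCG-treated senECs. Replicate 1 was again the lowest library of each group, and the 3 co-cultures overlapped with mono-culture. The log2 fold change for their mean was -0.16 ± 0.11 (adjusted p = 0.636), with a 95% interval from -0.39 to 0.07.

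FABP4, a fatty acid carrier of the cytosol, was scarce. It had 1.06, 2.05 and 1.54 CPM in mono-culture, 0.768, 0.747 and 1.28 with control ECs, 1.81, 0.81 and 1.21 with senECs, and 0.975, 0.699 and 0 with EGCG-treated senECs, where the last library had 0 counts, a limit of 0.16 CPM. The 3 libraries with EGCG-treated senECs lay below those of mono-culture (background for such a gap downwards 7.72%), and the log2 fold change was -1.50 ± 0.64 (adjusted p = 0.539), or -0.89 without the library at 0.

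PLIN2 encodes perilipin 2, the coat protein of lipid droplets, and is often read as a mark of stored lipid. It was at 156, 203 and 238 CPM in mono-culture, 172, 183 and 219.8 beside control ECs, 217, 243 and 319 beside senECs and 183, 239 and 251 beside EGCG-treated senECs. The mean was highest with senECs at 260 ± 52.9 CPM (SD, n = 3), but its lowest library lay within the range of mono-culture and of control ECs. The log2 fold change of senECs against mono-culture was 0.38 ± 0.16 (adjusted p = 0.388), and replicate 5 weighed on it: without that library it was 0.21. In numbers 1 and 2, which both groups hold, the senEC library was 1.39 and 1.20 times that of mono-culture. PLIN2 passed the test when every gene with a count was kept (adjusted p = 0.0386), and over the alternatives tried its adjusted p ran from 0.00154 to 0.882.

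The efflux transporters had the highest estimates of the set against mono-culture. ABCA1 loads cholesterol and phospholipid onto apolipoprotein A1, and is one of the best known LXR targets. The gene lies on chr9:104781002-104928237 (GRCh38, minus strand). The last 150 bases before its RefSeq start, chr9:104928156-104928305 (GRCh38.p14, minus strand, shown in the direction of the gene), are printed because they hold a repeat of the kind that LXR binds, with the match in capitals.
ABCA1: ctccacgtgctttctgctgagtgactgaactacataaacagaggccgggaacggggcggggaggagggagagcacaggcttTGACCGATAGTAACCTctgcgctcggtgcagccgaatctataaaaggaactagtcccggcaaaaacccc
The letters searched were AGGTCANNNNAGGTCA (a direct repeat with 4 bases between its parts, DR4), on both strands with up to 2 mismatches, in windows from 250 bases before to 50 after each start. The ABCA1 match lies on the strand opposite to the gene from base -69 to -54 and has 2 mismatches, and a match was found in 2.34% of 35116 RefSeq windows. RefSeq windows were matched for 4 members (ABCA1, CD36, NR1H3 and PLIN2, 12 windows in all), and no other of these windows held a DR4 match. The 1-base spaced repeat that PPARs bind (AGGTCANAGGTCA, DR1), present in 2.97% of windows, was matched in 1 CD36 window, from base -147 to -135 with 2 mismatches. Such a match describes the letters and is no evidence of binding.

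ABCA1 was at 106, 89.7 and 114 CPM in mono-culture, 142, 177 and 215 beside control ECs, 99.1, 168 and 164 beside senECs and 95.3, 167 and 239 beside EGCG-treated senECs. Every control EC library lay above every mono-culture library (background for such a gap upwards 6.25%), while replicate 1 of both senEC groups lay within the mono-culture range and the other libraries of these groups above it. The mean was 103 ± 12.3 CPM (SD, n = 3) in mono-culture and 178 ± 36.6 with control ECs, and the log2 fold change of 0.79 ± 0.24 did not pass the test (adjusted p = 0.398). For ABCA1 the main fit used a spread of 2.87, where the gene's own was 6.06. Its standard errors and intervals are therefore narrower than its own spread would give. The estimates were 0.48 ± 0.24 with senECs (adjusted p = 0.478), 0.70 ± 0.24 with EGCG-treated senECs (adjusted p = 0.381) and 0.65 ± 0.20 for the mean of the 3 co-cultures (adjusted p = 0.204). ABCA1 was called in 2 of these when replicate 1 of EGCG-treated senECs was left out, with an adjusted p of 0.0484 for EGCG-treated senECs and 0.0286 for the mean. Without replicate 5 of EGCG-treated senECs the estimate for that group was 0.34 (adjusted p = 0.760). It was called with control ECs when only the 6 libraries compared were fitted (adjusted p = 0.0260). Over all alternatives the adjusted p ran from 1.32e-12 to 1 with control ECs, from 1.10e-06 to 0.775 with EGCG-treated senECs and from 7.46e-09 to 0.652 for the mean.

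ABCG1, which passes cholesterol on to HDL particles, lies on chr21:42199689-42297244 (GRCh38, plus strand) and was near the limit of detection. It had 4, 9 and 7 counts in mono-culture, 14, 18 and 21 beside control ECs, 10, 19 and 11 beside senECs and 8, 20 and 37 beside EGCG-treated senECs. In CPM these are 0.249, 0.484 and 0.386, then 0.672, 0.791 and 1.17, then 0.516, 1.10 and 0.665, and 0.487, 1.27 and 1.98. Each of the 9 co-culture libraries had a higher CPM than each of the 3 mono-culture libraries, a gap upwards that 1.77% of all genes showed. The highest mono-culture value, 0.484 CPM, and the lowest co-culture value, 0.487, nearly touched. The log2 fold change was 1.20 ± 0.55 with control ECs (adjusted p = 0.754), 1.00 ± 0.56 with senECs (adjusted p = 0.545), 1.72 ± 0.55 with EGCG-treated senECs (adjusted p = 0.316) and 1.31 ± 0.48 for their mean (adjusted p = 0.312). These did not pass the test, and counts this low limit the precision.

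NR1H3, which encodes the receptor LXRα, was the steadiest member, with the highest of 12 libraries 1.23 times the lowest. It was at 35.2, 31.1 and 33.3 CPM in mono-culture, 31.1, 30.4 and 29.1 beside control ECs, 30.3, 32.2 and 32.8 beside senECs and 35.6, 30.9 and 29.03 beside EGCG-treated senECs. The log2 fold change against mono-culture was -0.14 ± 0.11 with control ECs (adjusted p = 0.928), where the libraries just failed to overlap (background for such a gap downwards 6.51%), -0.07 ± 0.11 with senECs (adjusted p = 0.888) and -0.06 ± 0.11 with EGCG-treated senECs (adjusted p = 0.930). MSR1 was the other member whose control EC libraries all lay below mono-culture. With senECs, SCARB1 and ABCG1 lay above mono-culture in all libraries (background 8.18%) and 0 members below (background 8.5%), and with EGCG-treated senECs ABCG1 lay above (background 6.4%). The median endothelial marker sum was 22.1 CPM in mono-culture, 25.4 beside control ECs, 27.6 beside senECs and 25.8 with EGCG-treated senECs. The sums overlapped between mono-culture and each co-culture. However, only the highest mono-culture sum, 27.9 CPM, lay above the lowest co-culture sum, 25.3 CPM. The part of endothelial RNA in the differences of the members was not tested. In bulk RNA, a change in the share of cells that express a gene and a change per cell cannot be told apart.

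**Figure D3:**
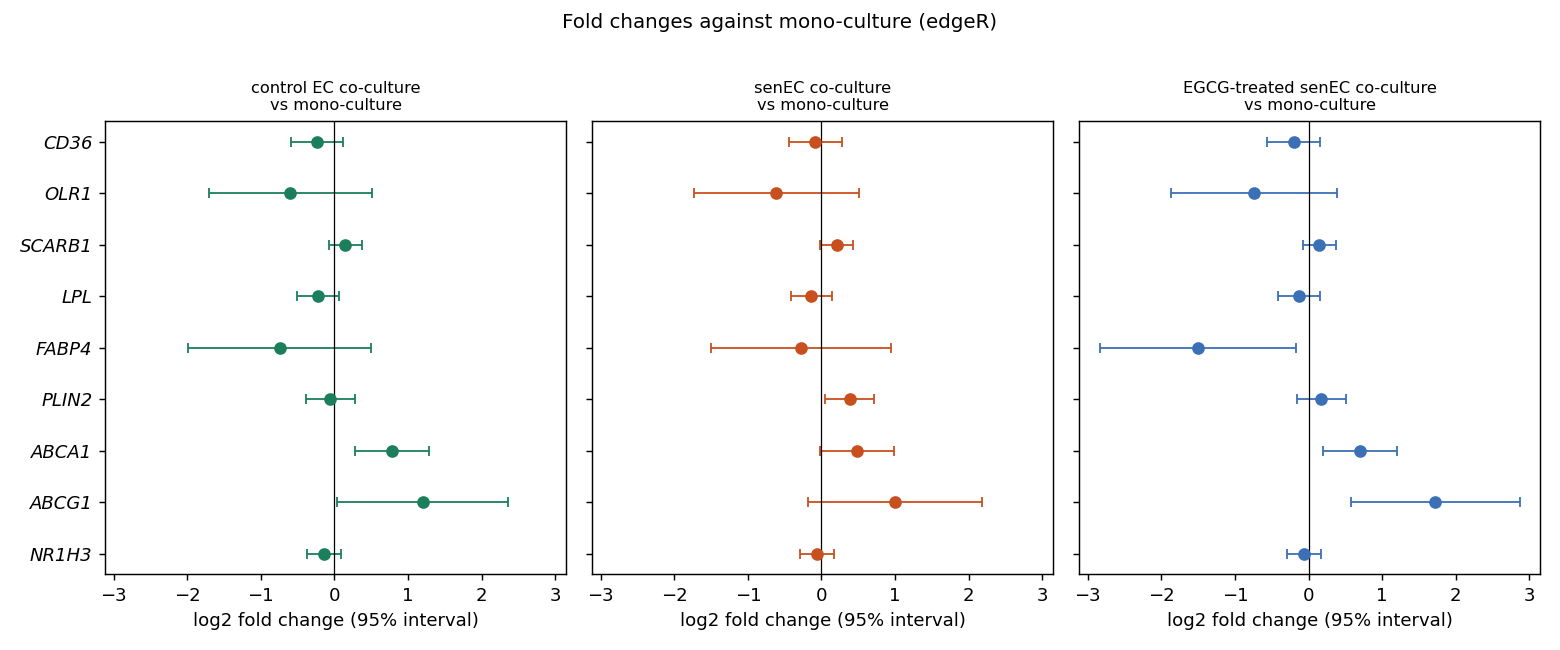
Log2 fold changes of 9 members (y axis) against mono-culture in the 3 co-cultures (panels), with 95% intervals from edgeR that are not adjusted for multiple tests. MSR1 is left out because several libraries were at or under 3 counts. ABCA1 and ABCG1 lie to the right of 0 in all panels, and no member passed the adjusted test.

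The next question was whether senECs differed from control ECs as partners, and whether EGCG treatment of the senECs changed that. The test called 0 of 10 members for senECs against control ECs (background 0%), 0 of 10 for EGCG-treated senECs against senECs (background 0%) and 0 of 10 for EGCG-treated senECs against control ECs (background 0%), and DESeq2 called 0 in each. At an unadjusted p of 0.05 there were 2, 0 and 1 members, where all genes gave 6.61%, 2.22% and 4.55%. The 2 were MSR1 and PLIN2, and the 1 was MSR1, which had only 0, 0 and 2 counts beside control ECs. PLIN2 had an estimate of 0.44 ± 0.16 for senECs against control ECs (adjusted p = 0.728, 95% interval from 0.10 to 0.77), or 0.26 without replicate 5 of senECs (adjusted p = 1), with an adjusted p from 0.00209 to 1 over the alternatives and a call when every gene with a count was kept (adjusted p = 0.0421). In the numbers both groups hold, the senEC library was 1.26 times the control EC library in number 1 and 1.33 times in number 2. For EGCG-treated senECs against senECs, PLIN2 was lower in each of the 3 shared numbers, by ratios of 0.845, 0.982 and 0.789, and the log2 fold change was -0.21 ± 0.16 (adjusted p = 1, 95% interval from -0.54 to 0.13).

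ABCA1 was lower with senECs than with control ECs by an estimate of -0.31 ± 0.24 (adjusted p = 0.792). Its difference between EGCG-treated senECs and senECs was 0.22 ± 0.24 (adjusted p = 1, 95% interval from -0.28 to 0.72), and rested on replicate 5, at 239 and 164 CPM, since the libraries of numbers 1 and 2 had ratios of 0.961 and 0.991. The 95% interval of the same difference ran from -0.23 to 0.24 for NR1H3, from -0.28 to 0.17 for SCARB1, from -0.28 to 0.29 for LPL and from -0.34 to 1.79 for ABCG1, and the sign of the estimate for the first 3 of these turned when single libraries were left out.

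The members were also compared by replicate number. In a model with both terms, 5 of 10 members passed the edgeR test for the replicate number (background 9.61%): CD36, OLR1, LPL, PLIN2 and ABCA1. The spread of single genes was pulled almost wholly to the common trend in that model, and ABCA1, whose own spread was far above the trend, was not called by DESeq2 (adjusted p = 0.122) or with a robust estimate of the spread (adjusted p = 0.385), whereas CD36, OLR1, LPL and PLIN2 were called by all of them. PLIN2 averaged 182 CPM in the 4 libraries numbered 1, 217 in the 4 numbered 2, 229 in the 2 numbered 3 and 285 in the 2 numbered 5. OLR1 averaged 1.12, 1.95, 4.20 and 3.61 CPM in the same order, a wider span than between any groups, and LPL 619.9, 693, 831 and 794. CD36 was lowest in number 1 at 187 CPM and highest in number 2 at 265. Number 3 was held by mono-culture and control ECs and number 5 by the senEC groups, so that for those libraries the number and the group cannot be told apart.

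**Figure D4:**
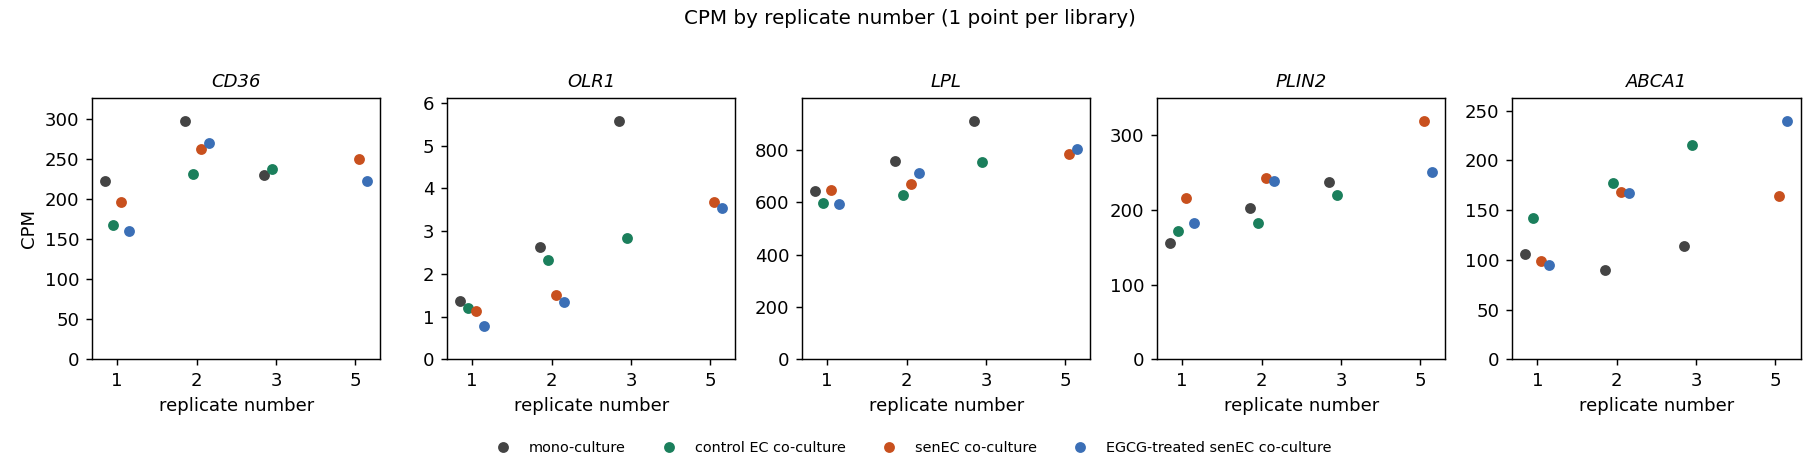
CPM of the 5 members that edgeR called for the replicate number (y axis, from 0) against the replicate number (x axis), 1 point per library, coloured by group. Libraries numbered 1 are the lowest of each group for CD36, OLR1, LPL and PLIN2, and ABCA1 of mono-culture stays between 89.7 and 114 CPM in all its numbers.

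None of the regulators around the members passed the test. NR1H2, the gene of LXRβ, was at 35.1 ± 3.38 CPM in mono-culture (mean ± SD, n = 3), 32.5 ± 1.07 beside control ECs, 38.7 ± 8.62 beside senECs and 37.2 ± 0.692 beside EGCG-treated senECs. RXRA, the retinoid X receptor partner, had log2 fold changes of -0.04 to 0.06 against mono-culture in the 3 co-cultures. PPARG was at 98.4 ± 5.43 CPM in mono-culture, 81.6 ± 3.61 beside control ECs, 99.1 ± 10.8 beside senECs and 94.0 ± 4.86 beside EGCG-treated senECs, and the estimate with control ECs, -0.27 ± 0.10, did not pass (adjusted p = 0.640).

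Of 17 further LXR partners and targets, 16 were tested and 0 were called in each comparison with mono-culture, with a median log2 fold change of -0.08 beside control ECs, -0.10 beside senECs and 0.04 with EGCG-treated senECs. SREBF1, the gene of the lipogenic factor SREBP-1, was at 59.0 ± 14.2 CPM in mono-culture and 73.2 ± 14.2 with control ECs (log2 fold change 0.31 ± 0.15, adjusted p = 0.782). MYLIP, which encodes a ubiquitin ligase, had 0.11 ± 0.16 with control ECs (adjusted p = 0.980) and -0.18 ± 0.16 with senECs (adjusted p = 0.750). APOE, an apolipoprotein that accepts cholesterol, was called for the replicate number, from 8.21 to 10.4 CPM in the libraries numbered 1 to between 22.8 and 31.5 in those numbered 5, and its log2 fold change for the mean of the co-cultures was -0.29 ± 0.35 (adjusted p = 0.830). Together with APOE, APOC1, SCD, FASN and SREBF1 made up the 5 of 16 called for the number (background 9.61%).

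Among 20 other scavenger and lipoprotein receptors, 19 were tested and 1 was called with senECs (background 0.309%), CD14, the LPS co-receptor that also binds lipoproteins. CD14 rose from 8.92 ± 2.67 CPM in mono-culture to 38.2 ± 25.1 with senECs (log2 fold change 2.09 ± 0.42, adjusted p = 0.0363), and for the mean of the co-cultures, with a log2 fold change of 1.59 ± 0.37 (adjusted p = 0.0492). The senEC call held in 5 of 12 fits with 1 library left out, with an adjusted p up to 0.258, and was lost without any 1 library of mono-culture, without replicate 2 or 5 of senECs, and without replicate 2 of control ECs or of EGCG-treated senECs. The call for the mean held in 4 of 12 (adjusted p up to 0.275), and was lost without any 1 library of mono-culture, replicate 2 or 3 of control ECs, replicate 2 of senECs, or replicate 2 or 5 of EGCG-treated senECs. Stricter count filters and a robust spread also ended both calls (adjusted p up to 0.333), as did a fit of only the libraries compared for the senEC call and DESeq2's size factors for the mean. It also varied with the replicate number, from 5.90 to 16.6 CPM in number 1 and from 41.6 to 65.7 in number 5. The 19 receptors had a median log2 fold change of 0.28 beside control ECs, 0.66 beside senECs and 0.63 beside EGCG-treated senECs, beside the 0.01, -0.02 and -0.00 of all genes, and 8 of 19 were called for the replicate number (background 9.61%). Several of the 19 averaged below 1 CPM in mono-culture, and number 5 was held by the senEC groups alone, which limits these medians. CD163, the haemoglobin scavenger receptor, averaged 8.94 CPM in number 1, 22.3 in number 2, 38.0 in number 3 and 90.5 in number 5, and LRP1, a large endocytic receptor, averaged 44.7, 86.7, 73.0 and 111 in that order.

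Of 16 PPAR receptors, partners and targets, 15 were tested and 1 was called for the mean of the co-cultures (background 0.723%). PDK4, which encodes a kinase that blocks pyruvate dehydrogenase and favours fatty acid use, fell from 27.6 ± 5.43 CPM in mono-culture to 10.1 ± 2.90 beside control ECs, 12.3 ± 3.91 beside senECs and 11.0 ± 6.45 beside EGCG-treated senECs, with a log2 fold change of -1.31 ± 0.26 for their mean (adjusted p = 0.0175). Its 3 single comparisons did not pass the test, and the call for the mean was lost without any 1 library of mono-culture (adjusted p up to 0.231) and with a robust spread (0.233). PDK4 was also called for the replicate number, averaging 18.1, 17.6, 14.3 and 5.89 CPM in numbers 1, 2, 3 and 5, and number 5 was held by the senEC groups alone. ACSL1, which activates long-chain fatty acids, and PPARGC1B, a coactivator, were among the 4 of 15 called for the replicate number (background 9.61%), ACSL1 averaging 745 CPM in number 1 and 1325 in number 5 and PPARGC1B 45.0 and 24.8.

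Of 22 genes of lipid droplet storage and lipolysis, 21 were tested and PNPLA3, a droplet-bound acyl hydrolase, fell for the mean of the co-cultures, with a log2 fold change of -0.63 ± 0.12 (adjusted p = 0.0161). It was at 39.8 ± 6.18 CPM in mono-culture, 28.0 ± 2.80 beside control ECs, 24.2 ± 4.77 beside senECs and 25.1 ± 3.42 beside EGCG-treated senECs, and the call was lost without replicate 1 or 3 of mono-culture (adjusted p up to 0.169). SOAT1, the enzyme that esterifies cholesterol for storage, was at 95.3 ± 11.4 CPM in mono-culture and 83.9 to 84.8 CPM on average in the co-cultures (mean of the co-cultures -0.18 ± 0.10, adjusted p = 0.544). G0S2, an inhibitor of droplet lipolysis, CES1, a carboxylesterase, and SOAT1 were the 3 of 21 called for the replicate number (background 9.61%), G0S2 averaging 45.1 CPM in number 1 and 93.6 in number 5.

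Of 15 genes of lysosomal and intracellular cholesterol handling, 13 were tested. STARD4, a cytosolic sterol carrier, fell from 127 ± 19.4 CPM in mono-culture to 84.2 ± 1.87 with senECs (log2 fold change -0.59 ± 0.12, adjusted p = 0.0433), and was at 116 ± 11.7 with control ECs and 97.4 ± 13.9 with EGCG-treated senECs. That call held in 6 of 12 fits with 1 library left out (adjusted p up to 0.266), and was lost without replicate 2 or 3 of mono-culture, replicate 2 or 5 of senECs, or replicate 2 of control ECs or of EGCG-treated senECs. It was also lost with edgeR's own filter and with only the libraries compared (adjusted p up to 0.0979). OSBPL1A, an oxysterol-binding protein relative, fell for the mean of the co-cultures, with a log2 fold change of -0.37 ± 0.08 (adjusted p = 0.0355), a call that held in 3 of 12 such fits (adjusted p up to 0.314) and in none that lacked a library of mono-culture or of control ECs, replicate 2 of senECs, or replicate 2 or 5 of EGCG-treated senECs. LIPA, the lysosomal acid lipase that frees cholesterol from esters, was called for the replicate number with CYP27A1, NPC2, CAV1 and APOL1, 5 of 13 (background 9.61%), and had -0.21 ± 0.13 for the mean of the co-cultures (adjusted p = 0.593).

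Monocyte markers also varied with the number. Of 11 markers 9 were called for it (background 9.61%), among them LYZ, the lysozyme gene, at 67.5 to 78.3 CPM in number 1 and 122 to 152 in number 2, and TYROBP, a signalling adaptor, averaging 161 CPM in number 1 and 256 in number 5. FCGR1A, the high-affinity IgG receptor, rose for the mean of the co-cultures by 0.55 ± 0.12 (adjusted p = 0.0348), which held in 6 of 12 fits with 1 library left out (adjusted p up to 0.216) and was lost without any 1 library of mono-culture, replicate 3 of control ECs, or replicate 2 or 5 of EGCG-treated senECs. Of 12 endothelial markers, 9 were tested and 0 were called for the number or in any comparison with mono-culture.

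Across the 12 libraries the members did not move as one. The correlation of log2(CPM + 2) between abundant members, given as a description since these libraries share groups and numbers, was highest for LPL and PLIN2 (Pearson r = 0.68) and lowest for SCARB1 and LPL (r = -0.79), and ABCA1 and NR1H3 had r = -0.62. Among 9351 genes with a mean of at least 10 CPM, the gene most like ABCA1 was DTX3L (r = 0.92), and KREMEN1 (0.90) was also among the 3 most like it. Most like PLIN2 were TMSB10, RAB13 and SAP30BP (r = 0.95 to 0.96), and most like LPL were SRSF5, KCTD10 and MCL1 (0.95). For CD36 they were RETREG1, MAGT1 and STT3B (0.92 to 0.93), for SCARB1 LILRB4, NPRL3 and ZDHHC18 (0.93 to 0.94), and for NR1H3 WDR81, FAM98C and TMEM105 (0.89 to 0.91).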

How the data were processed

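The authors deposited raw counts per gene symbol for RNA-sequencing of THP1 cells, made from cleaned reads aligned with HISAT2 to hg38 per the submitters' processing notes. The counting program and annotation are not given in the sources used here, and all 57169 distinct symbols match GENCODE release 29, which gave positions and exon lengths. The 12 libraries were grouped by their labels, and 4 further columns that match no described sample were not used. A total of 10 counts or more was required, and the 25873 genes that had it were tested with edgeR 4.0.16 (quasi-likelihood, TMM, all 12 libraries, group as the sole term) in R 4.3.3, at a Benjamini-Hochberg adjusted p of 0.05. Standard errors equal the absolute log2 fold change over the root of edgeR's F. The replicate number was tested in a model with group and number. Alternatives were DESeq2 1.42.0, other filters, scaling, library sets and blocks. Fits were tested on simulated data. Each of 12 replicate pairs differed beyond sampling noise (chi-square per degree of freedom 9.23 to 33.7). Members and lists were chosen with earlier results of these data known. Named genes were the 10 members, 9 regulators and reference genes, list genes called between groups or, up to 3 per list, for the number, and the 3 genes most like each member with a mean of at least 5 CPM. Results for 2 of these genes are not reported here. CPM used TMM sizes. Figures were made with Python 3.11.15 and matplotlib 3.10.9.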

Additional observations from a re-analysis of the deposited data

How the results depend on the processing

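No member was called in the 7 comparisons between groups with DESeq2, with DESeq2's size factors in edgeR, with at least 10 counts in every library, with edgeR's own filter or with a robust spread, the last chosen after seeing the data. With every gene with a count kept, 1 member was called with control ECs, with EGCG-treated senECs and for the mean of the co-cultures against mono-culture (ABCA1), 2 with senECs (ABCA1 and PLIN2) and 1 for senECs against control ECs (PLIN2), and with only the libraries compared 1 was called with control ECs (ABCA1). Keeping every gene with a count called 223, 377, 582, 588 and 114 of 34767 genes in that order. The main fit called 37, 55, 187, 80 and 0. With only the libraries compared, 52 of 23539 genes were called with control ECs. The cause of these differences between settings was not tested. Leaving out 1 library at a time gave 0 to 1 called members with EGCG-treated senECs and for the mean of the co-cultures, 0 in the other comparisons between groups and 5 to 7 for the replicate number, the 7 without replicate 5 of senECs. Among all genes tested these fits called 12 to 100 with EGCG-treated senECs, 37 to 244 for the mean and 1761 to 3598 for the number. The direction turned for OLR1 in the mean of the co-cultures (-1.01 to 0.0127, above 0 without replicate 3 of mono-culture), for PLIN2 with control ECs (-0.20 to 0.10, above 0 at 0.0985 without replicate 3 of mono-culture and at 0.0164 without replicate 1 of control ECs) for ABCA1 in EGCG-treated senECs against senECs (-0.13 to 0.50, below 0 without replicate 5 of EGCG-treated senECs), for CD36 with senECs (-0.164 to 0.0584, above 0 without replicate 2 of mono-culture or 1 of senECs) and for NR1H3 with EGCG-treated senECs (-0.157 to 0.00277, above 0 without replicate 5 of these). In EGCG-treated senECs against senECs it also turned for SCARB1 (-0.111 to 0.0407, above 0 without replicate 5 of EGCG-treated senECs), NR1H3 (-0.0792 to 0.0682, and -0.0102 with every gene with a count) and LPL (-0.101 to 0.118, -0.00749 with every gene with a count, -0.000444 with the replicate block, with or without a robust spread, and -0.000708 with numbers 3 and 5 joined). The alternatives were run on 35 fold changes of 9 members, MSR1 left out, and of 754 such values 711 kept their direction and side of the threshold, 24 became called and 19 turned.

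The labels do not say that equal replicate numbers mark a pairing, and the main model has no term for them. The deviations of same-numbered libraries from their group means correlated at 0.03 to 0.58 over 14 pairs (14397 genes). Of 12 libraries, 8 correlated best with a library of their own number. The others were those numbered 3 and 5, and each correlated best with a library of the other of these numbers (r = 0.43 to 0.53). The libraries thus resembled each other by number, with 3 and 5 alike. Since the labels name no pairing, the block is given as an alternative only, and the member calls depended on it. With a replicate block, 1, 2, 1 and 1 members were called with control ECs, senECs, EGCG-treated senECs and their mean against mono-culture, and 2 for senECs against control ECs, with the genes called among all tested rising from 37 to 469, 80 to 709, 55 to 424, 187 to 824 and 0 to 153. With numbers 3 and 5 joined in the block the members were 1, 2, 1, 1 and 1. The genes called among all 25873 tested were then 400, 1407, 782, 1243 and 268. The block's prior degrees of freedom were 1195, against 11.2 without it, and its spread for ABCA1 was 0.897 where the gene's own was 6.76. With the block and a robust spread, chosen after seeing the data, 1 member was called with senECs and 1 for senECs against control ECs, PLIN2 in both (adjusted p = 0.00783 and 0.0103), and ABCA1 was not called. The scarce members are limited by depth.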
